A study of Homo sapiens with 15 samples.

Results

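PTPRZ1, a receptor-type protein tyrosine phosphatase, was followed together with its soluble ligands MDK and PTN, with SDC1, SDC4, NCL and LRP1, which also bind these ligands at the cell surface, and with FAM3C, a neighbour of PTPRZ1 on chromosome 7. These 8 genes were taken by symbol from a table of 61544 genes, and each symbol matched 1 gene. RNA-seq had been performed on HCC95, an established human lung squamous cell carcinoma (LUSC) line, after transfection with an siRNA, a short double-stranded RNA that directs cleavage of a matching mRNA. The 5 groups of 3 libraries were siNC1, the negative control siRNA that represents cells with no targeted factor, and siKLF5b, siTP63b, siSOX2b and siGRHL2a, each a single siRNA against the transcription factor in its name. All groups shared the same cell line and carried no other labelled agent, and the labels do not say whether the replicates were separate cultures, so the p-values measure the spread between these libraries.

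PTPRZ1 carries chondroitin sulfate chains on its extracellular part and phosphatase domains inside the cell, and it is best known from glia and neural progenitors. Binding of MDK or PTN to these chains clusters the receptor and lowers its phosphatase activity, so that tyrosine phosphorylation of its substrates increases. SDC1 and SDC4 are heparan sulfate proteoglycans, LRP1 is an endocytic receptor, and NCL is an abundant nucleolar protein that also reaches the cell surface.

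The promoters of the linked pair PTPRZ1 and FAM3C are shown because the knocked-down proteins are DNA-binding factors and both genes differed between knockdowns. The sequences are from RefSeq (GRCh38.p14), from 250 bases before to 50 bases after the start, written 5′ to 3′ on the strand of the gene, and capitals mark matches to the KLF-type motif CCNCNCCC on either strand, overlapping matches included. The PTPRZ1 promoter lies at chr7:121872911-121873210 on the plus strand and the FAM3C promoter at chr7:121396259-121396558 on the minus strand.
PTPRZ1: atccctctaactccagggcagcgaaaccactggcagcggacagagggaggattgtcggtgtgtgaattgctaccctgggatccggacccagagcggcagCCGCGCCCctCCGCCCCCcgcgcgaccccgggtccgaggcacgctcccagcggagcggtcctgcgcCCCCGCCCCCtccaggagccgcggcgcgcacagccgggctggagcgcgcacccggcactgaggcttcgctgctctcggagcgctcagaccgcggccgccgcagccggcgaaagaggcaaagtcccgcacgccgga
FAM3C: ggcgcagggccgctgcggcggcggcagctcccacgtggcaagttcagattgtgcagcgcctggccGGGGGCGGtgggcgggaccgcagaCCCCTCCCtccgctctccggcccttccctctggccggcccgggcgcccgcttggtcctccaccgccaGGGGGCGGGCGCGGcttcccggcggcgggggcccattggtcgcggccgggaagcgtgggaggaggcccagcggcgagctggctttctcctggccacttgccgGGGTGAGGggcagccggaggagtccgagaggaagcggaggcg

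The PTPRZ1 window held 4 KLF-type matches and 73.3% G or C, and the FAM3C window held 5 matches and 77.3% G or C. This motif was present in 56.2% of the 35116 promoters of the same length, so its presence is common. Neither window held the GRHL-type motif AACNGGTT (present in 1.73% of all promoters), the SOX-type motif ACAATG (10.8%) or a p63 decamer (6.63%), and the same was true of the windows found for PTN, SDC1, SDC4, NCL and LRP1. These letters are a description of short windows at the starts and do not cover distal enhancers.

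Counts summed to between 15655495 and 34229063 per library. The columns of the table fell into 2 sets by their names, siNC1 with siKLF5b, and siTP63b with siSOX2b and siGRHL2a. Counts between 20 and 500 were even for 49.7% to 50.7% of genes in the first set and for 66.1% to 69.0% in the second. For the knockdowns of the second set, a comparison with siNC1 is also one between the sets, and these cannot be told apart, so siKLF5b was compared with siNC1 and the other 3 knockdowns with each other. The RNA of each targeted gene was lowest in its own knockdown. The KLF5 knockdown was partial, with KLF5 RNA in siKLF5b at 0.64 of its siNC1 level (log2FC -0.64, adjusted p = 5.3e-10 from edgeR). TP63 was at 363 ± 22.3 CPM (counts scaled to a common library size with TMM factors, SD, n = 3) in siTP63b and at 624 CPM or more on average in the other groups, SOX2 was at 8.97 ± 1.63 CPM in siSOX2b against 20.2 or more, KLF5 was at 72.5 ± 1.13 CPM in siKLF5b against 113 or more, and GRHL2 was at 91.3 ± 0.56 CPM in siGRHL2a against 100.2 or more. The difference of GRHL2 between siSOX2b and siGRHL2a was small (log2FC 0.14, adjusted p = 0.031 from edgeR), and 7 of its alternatives brought the adjusted p above 0.05, among them leaving out siGRHL2a replicate 1 (0.059) or 2 (0.053) or siSOX2b replicate 1 (0.11). SOX2 RNA also varied among the other groups, and siTP63b had 29.6 ± 2.23 CPM, siGRHL2a 20.2 ± 1.54 CPM and siNC1 73.3 ± 7.15 CPM. It was highest in siKLF5b at 106.9 ± 2.09 CPM, where it rose against siNC1 (log2FC 0.54, adjusted p = 3.7e-06 from edgeR).

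The labelled squamous identity was present in every library. All 9 squamous markers passed the low-count filter and summed to between 6492 and 11710 CPM, and KRT5 alone had 4680 to 9491 CPM. These 9 include TP63, the target of siTP63b. The sum ran from 10180 to 11610 CPM in siNC1, from 6492 to 7506 in siKLF5b, from 6565 to 7475 in siTP63b, from 8964 to 9846 in siSOX2b and from 11360 to 11710 in siGRHL2a. Of the 8 glial markers 5 passed the filter, and MBP made up most of their sum with 52.6 to 99.4 CPM, while GFAP, OLIG2, SOX10 and AQP4 stayed at or below 1.19 CPM. The glial sum was 54.1 to 58.9 CPM in siNC1, 60.7 to 66.0 in siKLF5b and 72.7 to 101 in the other 3 groups. Fibroblast (3 of 6 passed, summing to 3.75 to 9.995 CPM), leukocyte and endothelial (3 of 7, 32.3 to 51.5 CPM, mainly CD68) and alveolar (1 of 5, 2.65 to 11.3 CPM, NKX2-1) markers were also low. The part of these marker changes in the results below was not tested, and in bulk RNA fewer cells of a type and less RNA per cell cannot be told apart.

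All 8 genes passed the low-count filter. Levels between genes were compared per kilobase, since genes were counted over their whole span, introns included. Per kilobase of exon, the siNC1 means were 115 CPM for NCL, 79.05 for SDC1, 74.1 for FAM3C, 20.02 for PTPRZ1, 10.8 for MDK, 8.77 for SDC4, 3.40 for LRP1 and 0.361 for PTN. Per kilobase of span, NCL (34.1 CPM) and SDC1 (11.6) were again highest and PTN (0.00502) again lowest, but MDK at 7.65 CPM stood above FAM3C at 5.30 and PTPRZ1 at 1.07. On both scales MDK far exceeded PTN, so MDK was the more abundant transcript of this pair of ligands in HCC95. The span of PTPRZ1 (188948 bases, with 10137 bases of exon) overlapped 0 listed genes, and its counts are therefore not shared with another gene.

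PTPRZ1 RNA rose after KLF5 knockdown, and among the other 3 knockdowns it was lower in siTP63b and siSOX2b than in siGRHL2a. PTPRZ1 (ENSG00000106278.12, hg38 chromosome 7, plus strand, 121873089 to 122062036) had 203, 199 and 207 CPM in the siNC1 libraries and 263, 252 and 244 CPM in the siKLF5b libraries, with no overlap between the groups. PTPRZ1 rose in siKLF5b from 203 ± 3.94 to 253 ± 9.72 CPM (SD, n = 3), a log2FC of 0.32 with a standard error of 0.057 (adjusted p = 8e-05, edgeR quasi-likelihood, adjusted over all genes tested). The increase was 1.25-fold and below the absolute log2FC of 0.75 that, with an adjusted p below 0.05, defined a differentially expressed gene (DEG).

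In the second column set, PTPRZ1 had 75.8, 72.5 and 68.4 CPM in siTP63b and 73.6, 67.8 and 60.7 CPM in siSOX2b. The siGRHL2a libraries had 111, 96.8 and 103 CPM. The siTP63b and siSOX2b libraries overlapped and lay below every siGRHL2a library. PTPRZ1 was lower in siTP63b than in siGRHL2a by a log2FC of -0.52 (standard error 0.059, adjusted p = 3.4e-08 from edgeR) and lower in siSOX2b than in siGRHL2a by -0.62 (standard error 0.060, adjusted p = 2.6e-09 from edgeR). Between siTP63b and siSOX2b the log2FC was 0.097 with a 95% interval from -0.026 to 0.22 (adjusted p = 0.24 from edgeR). Leaving out any single library moved these log2FC values to between -0.57 and -0.47, between -0.67 and -0.54, and between 0.024 and 0.16. Against siNC1, where the column set cannot be told apart from the knockdown, the log2FC of PTPRZ1 was -1.49 in siTP63b (72.2 ± 3.74 CPM), -1.59 in siSOX2b (67.4 ± 6.48 CPM) and -0.97 in siGRHL2a (104 ± 7.01 CPM), each with the same 3 control libraries and each past the DEG thresholds (adjusted p from edgeR 2.5e-19, 6.5e-20 and 5.2e-15).

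**Figure D1:**
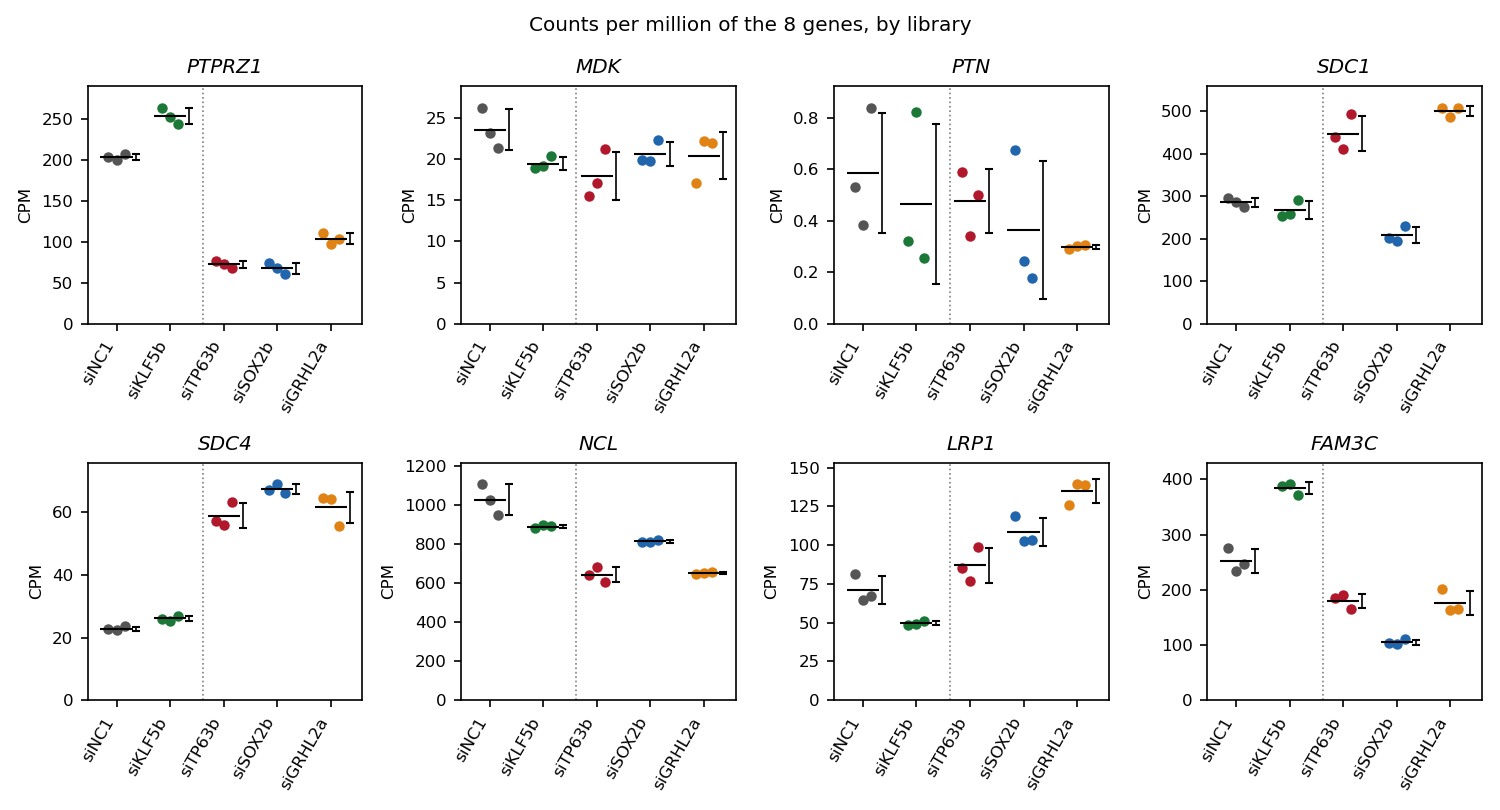
Library-scaled counts (CPM, vertical axes from 0) of the 8 genes in the 15 libraries. Points are libraries, horizontal lines are group means, bars are the SD (n = 3), and the dotted line parts the column sets. PTPRZ1 lies between 244 and 263 CPM in siKLF5b and between 60.7 and 75.8 CPM in siTP63b and siSOX2b, while MDK stays between 15.5 and 26.2 CPM in every library.

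Neither MDK nor PTN passed the test in a comparison within a column set. MDK (ENSG00000110492.17, hg38 chromosome 11, plus strand, 46380756 to 46383837), a heparin-binding growth factor, had 26.2, 23.2 and 21.3 CPM in siNC1 and 18.9, 19.1 and 20.4 CPM in siKLF5b. These groups did not overlap, but the log2FC of -0.28 (95% interval -0.50 to -0.057) did not pass the adjustment (adjusted p = 0.063 from edgeR). It passed in 5 of 16 alternatives, among them a fit of the 6 libraries alone (log2FC -0.26, adjusted p = 0.011) and a fit without siNC1 replicate 3 (log2FC -0.36, adjusted p = 0.034).

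The siTP63b libraries had 15.5, 17.1 and 21.2 CPM of MDK, the siSOX2b libraries 19.9, 19.8 and 22.3 CPM and the siGRHL2a libraries 17.1, 22.2 and 22.0 CPM. These ranges overlapped, and the log2FC was -0.20 for siTP63b against siSOX2b, -0.19 for siTP63b against siGRHL2a and 0.013 for siSOX2b against siGRHL2a (adjusted p = 0.15, 0.20 and 0.95 from edgeR). Without siTP63b replicate 3 the first became -0.34 and the second -0.31 (adjusted p = 0.017 and 0.029 from edgeR), and without siGRHL2a replicate 1 the second became -0.30 (adjusted p = 0.040 from edgeR). Against siNC1 the log2FC of MDK was -0.40 in siTP63b (adjusted p = 0.0023 from edgeR), -0.19 in siSOX2b (0.12) and -0.21 in siGRHL2a (0.097), and the last became -0.29 without siNC1 replicate 3 (adjusted p = 0.040). The overlapping gene CHRM4, on the other strand, had 1.99% of the counts of MDK.

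PTN (ENSG00000105894.12, hg38 chromosome 7, minus strand, 137227341 to 137343774), the paralog of MDK, had 4 to 22 counts per library, or 0.177 to 0.839 CPM. At this depth its log2FC had standard errors of 0.496 to 0.525, and in the 7 comparisons the adjusted p was 0.11 or more by edgeR. The 95% interval for siKLF5b against siNC1 ran from -1.34 to 0.77, which includes changes beyond the DEG threshold in either direction. Without siSOX2b replicate 1 the log2FC against siNC1 was -1.44 (adjusted p = 0.044), compared with -0.65 with all libraries (adjusted p = 0.29).

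Within the second column set, SDC1 separated siSOX2b from siTP63b and siGRHL2a. SDC1 (ENSG00000115884.11, hg38 chromosome 2, minus strand, 20200797 to 20225433), the main syndecan of epithelia, had 202, 194 and 230 CPM in siSOX2b, 438, 411 and 493 CPM in siTP63b, and between 487 and 509 CPM in siGRHL2a. Every siSOX2b library lay below every library of the other 2 groups. SDC1 was lower in siSOX2b by a log2FC of -1.26 against siGRHL2a (standard error 0.063, adjusted p = 9.7e-16 from edgeR), and siTP63b was higher than siSOX2b by 1.1 (standard error 0.063, adjusted p = 6.3e-15 from edgeR), both past the DEG thresholds. The difference between siTP63b and siGRHL2a was -0.16 (adjusted p = 0.045 from edgeR) with overlapping libraries.

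That small difference of SDC1 lost its call in 10 of 16 alternatives. Among them, the log2FC was -0.095 without siTP63b replicate 2 (adjusted p = 0.31), -0.14 without siTP63b replicate 1 or siGRHL2a replicate 3 (adjusted p = 0.15 in each), -0.15 without siGRHL2a replicate 1 (adjusted p = 0.12) and -0.18 without siGRHL2a replicate 2 (adjusted p = 0.051). In the first column set SDC1 had 295, 288 and 274 CPM in siNC1 and 253, 259 and 291 CPM in siKLF5b, which overlapped (log2FC -0.094, 95% interval -0.22 to 0.034, adjusted p = 0.31 from edgeR). Against siNC1 the log2FC of SDC1 was 0.65 in siTP63b, -0.45 in siSOX2b and 0.81 in siGRHL2a (adjusted p = 2e-10, 2.6e-07 and 1.5e-12 from edgeR).

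SDC4 (ENSG00000124145.6, hg38 chromosome 20, minus strand, 45325288 to 45348424), a syndecan of focal adhesions, differed little within a column set and widely between the sets. It had 22.6, 22.5 and 23.7 CPM in siNC1, 26.1, 25.4 and 27.0 CPM in siKLF5b, 57.4, 55.9 and 63.4 CPM in siTP63b and 67.2, 69.05 and 66.2 CPM in siSOX2b. The siGRHL2a libraries had 64.6, 64.5 and 55.7 CPM. All 9 libraries of the second set lay above all 6 of the first. Against siNC1 the log2FC of SDC4 was 1.36, 1.56 and 1.43 in siTP63b, siSOX2b and siGRHL2a (adjusted p = 6.2e-17, 2.3e-18 and 2.2e-17 from edgeR), a pattern in which set and knockdown cannot be told apart.

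Within the first set the log2FC of SDC4 in siKLF5b was 0.19 with no overlap of the libraries (95% interval 0.037 to 0.34, adjusted p = 0.065 from edgeR), and it passed in 5 of 16 alternatives, with an adjusted p of 0.020 when the 6 libraries were fitted alone. Within the second set SDC4 was lower in siTP63b than in siSOX2b (log2FC -0.20, standard error 0.062, adjusted p = 0.015 from edgeR). This call was lost without siSOX2b replicate 2, siTP63b replicate 1 or siTP63b replicate 2 (log2FC -0.18, -0.18 and -0.16, adjusted p = 0.053, 0.052 and 0.075). The other comparisons of the set gave -0.065 (siTP63b against siGRHL2a, adjusted p = 0.48) and 0.13 (siSOX2b against siGRHL2a, adjusted p = 0.12).

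NCL (ENSG00000115053.17, hg38 chromosome 2, minus strand, 231453531 to 231483641) encodes nucleolin, which acts in ribosome biogenesis. NCL had 1107, 1025 and 951 CPM in siNC1 and 881, 896 and 893 CPM in siKLF5b, with no overlap, and it fell by 0.21 on the log2 scale in siKLF5b (standard error 0.050, adjusted p = 0.002 from edgeR). In the second set it had 643, 684 and 605 CPM in siTP63b and 809, 811 and 821 CPM in siSOX2b. The siGRHL2a libraries had 645, 650.0 and 658 CPM. The siSOX2b libraries were the highest of the set, and NCL was lower in siTP63b than in siSOX2b (log2FC -0.34, adjusted p = 2.7e-06 from edgeR) and higher in siSOX2b than in siGRHL2a (log2FC 0.32, adjusted p = 1e-05 from edgeR).

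Within the second set siSOX2b was thus at the top for NCL and at the bottom for SDC1. The siTP63b and siGRHL2a libraries overlapped (log2FC -0.016, 95% interval -0.12 to 0.085). Against siNC1 the log2FC of NCL was -0.67, -0.34 and -0.66 in siTP63b, siSOX2b and siGRHL2a (adjusted p = 5.7e-13, 7.9e-07 and 1.1e-12 from edgeR), and the first reached the DEG threshold without siNC1 replicate 3 (-0.7504). The 3 small nucleolar RNA genes inside the NCL span had at most 0.049% of its counts each.

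LRP1 differed in all 4 comparisons within a column set. LRP1 (ENSG00000123384.14, hg38 chromosome 12, plus strand, 57128483 to 57213361) had 81.3, 64.4 and 67.0 CPM in siNC1 and 48.8, 48.9 and 51.0 CPM in siKLF5b. The groups did not overlap, and LRP1 fell by 0.52 on the log2 scale in siKLF5b (standard error 0.082, adjusted p = 1.3e-05 from edgeR). The siTP63b libraries had 85.5, 76.6 and 98.9 CPM, the siSOX2b libraries 119, 103 and 103 CPM, and the siGRHL2a libraries 126, 139 and 139 CPM.

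LRP1 was thus lowest in siTP63b and highest in siGRHL2a, with no overlap between the 3 groups. The log2FC was -0.32 for siTP63b against siSOX2b (adjusted p = 0.0015 from edgeR), -0.63 for siTP63b against siGRHL2a (7.6e-08) and -0.31 for siSOX2b against siGRHL2a (0.002). Against siNC1 the values were 0.29, 0.61 and 0.92 in siTP63b, siSOX2b and siGRHL2a (adjusted p = 0.0019, 5.6e-08 and 9.5e-12 from edgeR), and siTP63b overlapped with siNC1. STAT6 overlaps LRP1 on the other strand and had 26.3% as many counts as LRP1, and LRP1-AS had 2.02%, so part of the LRP1 counts may be shared with them.

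FAM3C (ENSG00000196937.11, hg38 chromosome 7, minus strand, 121348878 to 121396364) encodes a secreted factor of the FAM3 family known from epithelial-mesenchymal transition, and it lies 476.7 kb before the start of PTPRZ1. FAM3C had 276, 233 and 246 CPM in siNC1 and 388, 391 and 371 CPM in siKLF5b, with no overlap. It rose by a log2FC of 0.61 in siKLF5b (standard error 0.066, adjusted p = 2e-08 from edgeR), which is 1.52-fold. In the second set it had 185, 190 and 166 CPM in siTP63b and 105, 101 and 110 CPM in siSOX2b. The siGRHL2a libraries had 201, 163 and 165 CPM.

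The siSOX2b libraries were thus the lowest for FAM3C, and those of siTP63b and siGRHL2a overlapped. FAM3C was higher in siTP63b than in siSOX2b (log2FC 0.78, standard error 0.067, adjusted p = 8.6e-11 from edgeR), a DEG whose log2FC dropped under 0.75 without siSOX2b replicate 2 (0.746) or siTP63b replicate 2 (0.737). It was lower in siSOX2b than in siGRHL2a by -0.74 (adjusted p = 6.4e-10 from edgeR), just short of the DEG threshold, which it passed without siGRHL2a replicate 2 (-0.80), siGRHL2a replicate 3 (-0.77) or siSOX2b replicate 3 (-0.76). For siTP63b against siGRHL2a the log2FC was 0.034 (95% interval -0.10 to 0.17). Against siNC1 the log2FC of FAM3C was -0.48, -1.26 and -0.51 in siTP63b, siSOX2b and siGRHL2a (adjusted p = 2.4e-07, 3e-16 and 6.8e-08 from edgeR).

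**Figure D2:**
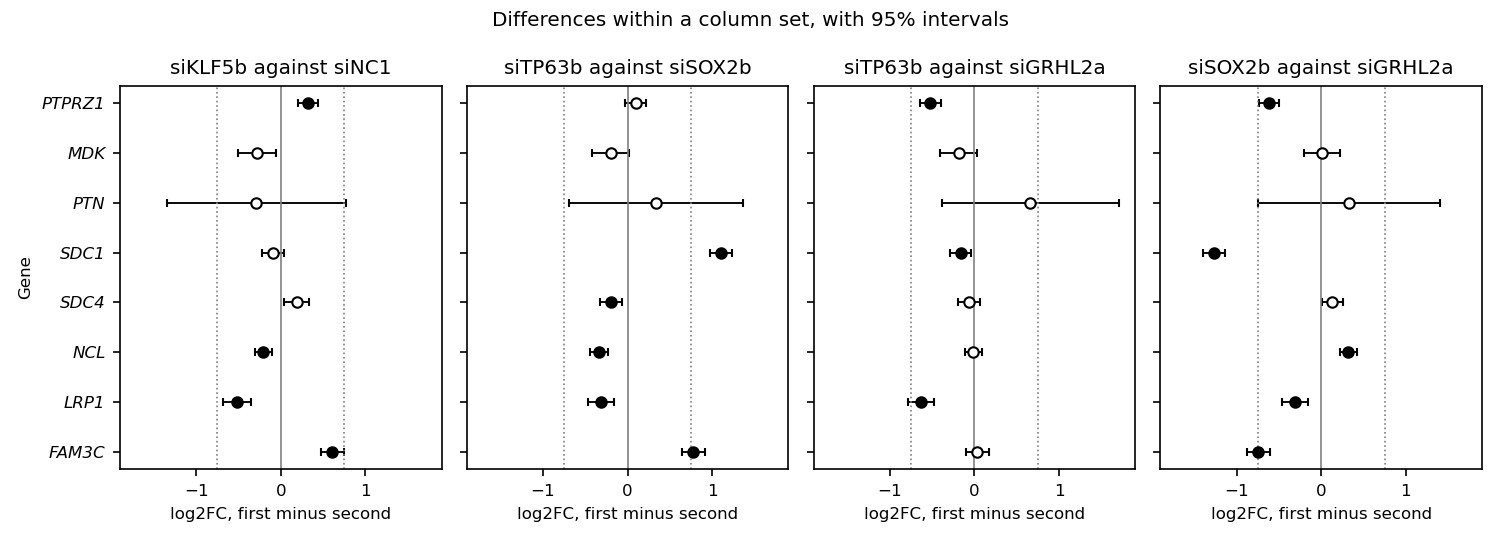
Log2 fold change (log2FC, first group minus second) of the 8 genes in the 4 comparisons within a column set, with 95% intervals. Filled points had an adjusted p below 0.05, and dotted lines mark an absolute log2FC of 0.75. SDC1 and FAM3C lie at 1.1 and 0.78 for siTP63b against siSOX2b, and PTPRZ1 at -0.52 and -0.62 in the comparisons with siGRHL2a.

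PTPRZ1 and FAM3C both rose in siKLF5b and were both lower in siSOX2b than in siGRHL2a, while their log2FC values were 0.097 and 0.78 for siTP63b against siSOX2b, and -0.52 and 0.034 for siTP63b against siGRHL2a. Their counts from the same library give a ratio that does not depend on the scaling. The log2 ratio of PTPRZ1 to FAM3C was -0.44, -0.23 and -0.25 in siNC1, -0.56, -0.63 and -0.61 in siKLF5b, -1.29, -1.39 and -1.28 in siTP63b, -0.51, -0.58 and -0.86 in siSOX2b, and -0.86, -0.75 and -0.68 in siGRHL2a. The siTP63b libraries had the lowest ratios of all 15, and siKLF5b lay below siNC1 without overlap.

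The mean log2 ratio was lower in siTP63b than in siSOX2b by -0.67 and than in siGRHL2a by -0.56, and lower in siKLF5b than in siNC1 by -0.29. Each gave p = 0.1 in a two-sided exact permutation test, which is the smallest value that 3 against 3 libraries allow, so none can reach 0.05. Between siSOX2b and siGRHL2a the difference was 0.11 (two-sided exact permutation p = 0.5).

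**Figure D3:**
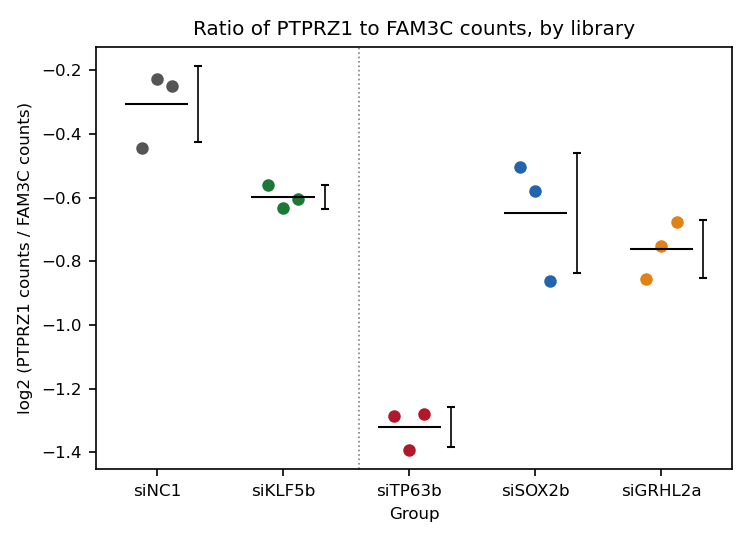
Log2 ratio of PTPRZ1 counts to FAM3C counts (vertical axis) in each library of the 5 groups (horizontal axis). Points are libraries, lines are group means, bars are the SD (n = 3), and the dotted line parts the column sets. The siTP63b libraries lie between -1.39 and -1.28, below the other 12.

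Read against all 25108 genes tested, the number of called genes among the 8 was as follows. For siKLF5b against siNC1, 4 of 8 had an adjusted p below 0.05 (23.2% of all genes) and 0 were DEGs (3.26%). For siTP63b against siSOX2b, 5 of 8 had an adjusted p below 0.05 (31.8% of all genes) and 2, SDC1 and FAM3C, were DEGs (6.7%), both higher (3.88% of all genes, with 2.82% lower). For siTP63b against siGRHL2a the counts were 3 (27.1%) and 0 (5.39%). For siSOX2b against siGRHL2a they were 5 (24.5%) and 1 (3.32%), SDC1, which was lower (2.27%, with 1.05% of all genes higher).

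Against siNC1, 54.1%, 55.4% and 54% of all genes had an adjusted p below 0.05 in siTP63b, siSOX2b and siGRHL2a. Among the 8 genes the counts were 7, 6 and 6. DEGs made up 20.7%, 21.8% and 19.7% of all genes, and 2, 3 and 4 of the 8. The median log2FC of the 8 was -0.15 in siKLF5b and between -0.15 and -0.050 in the comparisons of the second set, beside medians of all genes from -0.018 to 0.000595.

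Other protein-coding genes around PTPRZ1 were then examined. Within 1 Mb of its span lay 10 protein-coding genes, of which 7 were tested, and RNF133, RNF148 and TAS2R16 had at most 2 counts in a library. AASS, which encodes an enzyme of lysine breakdown, lies 2.55 kb beyond PTPRZ1 on the other strand. Its means were 74.96 ± 4.34, 86.1 ± 0.388 and 128.5 ± 6.32 CPM (SD, n = 3) in siTP63b, siSOX2b and siGRHL2a, and AASS was lower than in siGRHL2a by a log2FC of -0.78 in siTP63b (standard error 0.051, adjusted p = 2.3e-13 from edgeR) and -0.58 in siSOX2b (adjusted p = 3.2e-10). The first value fell under the DEG threshold without siGRHL2a replicate 2 (-0.74) or siTP63b replicate 2 (-0.72).

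AASS thus resembled PTPRZ1 in being highest in siGRHL2a within the second set, as the means of SDC1 and LRP1 also were. Against siNC1, where set and knockdown cannot be told apart, the 2 genes differed. There the log2FC of AASS was -0.18, 0.018 and 0.60 in siTP63b, siSOX2b and siGRHL2a (adjusted p = 0.0038, 0.79 and 1.7e-11 from edgeR). That of PTPRZ1 was -1.49, -1.59 and -0.97. AASS was also lower in siTP63b than in siSOX2b (log2FC -0.20, adjusted p = 0.003 from edgeR). In siKLF5b, where PTPRZ1 and FAM3C rose, the log2FC of AASS was 0.061 (95% interval -0.046 to 0.17, adjusted p = 0.46 from edgeR). FEZF1, a zinc finger gene of the forebrain 239 kb beyond PTPRZ1, rose in siKLF5b from 10.1 to 14.6 CPM (log2FC 0.54, adjusted p = 0.00052 from edgeR) and was lower in siSOX2b than in siGRHL2a (log2FC -0.47, adjusted p = 0.0019). The FEZF1 log2FC for siTP63b against siGRHL2a was -0.23 (adjusted p = 0.12) and passed without siTP63b replicate 2 (-0.33, adjusted p = 0.037). FEZF1-AS1 overlaps it on the other strand with 91.2% as many counts, so the pair cannot be told apart.

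ING3, a chromatin gene 896 kb before PTPRZ1, was higher in siTP63b than in siSOX2b (log2FC 0.33, adjusted p = 0.021 from edgeR). This call was lost without siSOX2b replicate 1 (0.24, adjusted p = 0.14) or siTP63b replicate 2 (0.28, adjusted p = 0.086). It was also lost when the 6 libraries (0.32, adjusted p = 0.069) or the libraries of the column set (0.32, adjusted p = 0.062) were fitted alone. CPED1, WNT16 and CADPS2 had means of 0.871 to 6.76 CPM and an adjusted p of 0.12 or more in the 4 comparisons. For WNT16, a Wnt ligand, the log2FC of siSOX2b against siGRHL2a passed without siGRHL2a replicate 1 (-0.89, adjusted p = 0.020), compared with -0.62 with all libraries. The WNT16 log2FC in siKLF5b was 0.57 (adjusted p = 0.14) and passed in 3 alternatives (0.58 with adjusted p = 0.016 in the 6 libraries alone). Thinning every library to the smallest total gave CPED1 a log2FC of 0.83 for siTP63b against siGRHL2a (adjusted p = 0.0079, against 0.38 with all counts) and 0.69 for siSOX2b against siGRHL2a (adjusted p = 0.032, against 0.22).

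**Figure D4:**
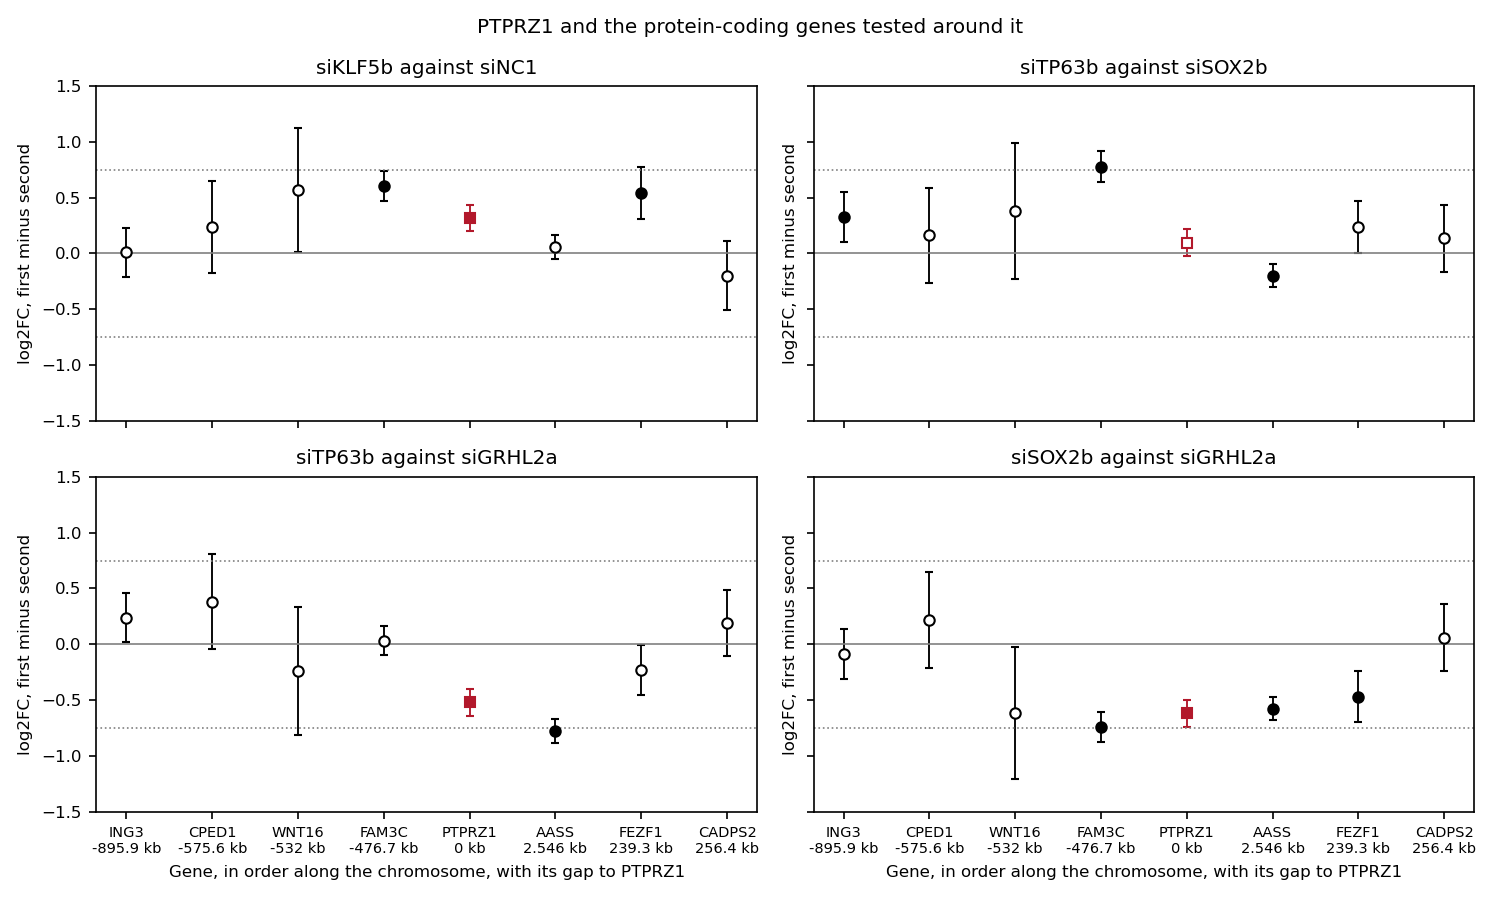
Log2FC (first group minus second, vertical axes) with 95% intervals of PTPRZ1 (red square) and the 7 tested protein-coding genes within 1 Mb, in order along the chromosome with the gap to the PTPRZ1 span in kb. Filled symbols had an adjusted p below 0.05, and dotted lines mark an absolute log2FC of 0.75. FAM3C, PTPRZ1 and FEZF1 were higher in siKLF5b (0.61, 0.32 and 0.54), and AASS was at 0.061.

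The rest of the pathway was covered by 7 lists of 86 further genes, of which 77 were tested. The lists held other ligands of PTPRZ1, other receptors of MDK and PTN, substrates and partners of PTPRZ1, PI3K and AKT genes, enzymes of chondroitin sulfate synthesis, other receptor-type phosphatases and the other FAM3 genes. DEGs in all genes were 1.89% higher and 1.37% lower for siKLF5b against siNC1, and 2.18% higher and 3.21% lower for siTP63b against siGRHL2a.

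Of the 7 other ligands tested, 0 were DEGs in siKLF5b, 2 were DEGs in siTP63b against siSOX2b, 2 in siTP63b against siGRHL2a and 0 in siSOX2b against siGRHL2a. In the same order, 3.26%, 6.7%, 5.39% and 3.32% of all genes were DEGs. TNC, an extracellular matrix glycoprotein that binds PTPRZ1, had 84.9, 70.6 and 106 CPM in siTP63b and 305, 274 and 296 CPM in siSOX2b. The siGRHL2a libraries had 247, 253 and 256 CPM. All siTP63b libraries were far below the others, and TNC was lower in siTP63b by a log2FC of -1.74 against siSOX2b (adjusted p = 3.2e-17 from edgeR) and -1.53 against siGRHL2a (adjusted p = 8.3e-16). DELEC1 on the other strand encloses TNC and had more counts than TNC in 15 of 15 libraries, at 101% to 103% of them, so the counts of these genes cannot be told apart.

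L1CAM, a neural adhesion molecule, was higher in siTP63b than in siSOX2b (41.0 ± 5.96 against 20.7 ± 2.03 CPM, log2FC 0.98, adjusted p = 1.4e-09 from edgeR), and an overlapping gene on the same strand had 18.5% of its counts. NFASC, a neural adhesion molecule of the same family, was lower in siTP63b than in siGRHL2a (5.48 ± 2.01 against 10.3 ± 0.501 CPM, log2FC -0.92, adjusted p = 5.8e-05 from edgeR). Without siTP63b replicate 2 the log2FC of NFASC was -0.67.

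CNTN1, a GPI-anchored adhesion molecule that binds PTPRZ1, was singled out after its values were seen, as the ligand with the most CPM in siNC1. It had 189, 185 and 191 CPM in siNC1, 247, 249 and 233 CPM in siKLF5b, and 107, 105 and 100.2 CPM in siTP63b. The siSOX2b libraries had between 115 and 119 CPM and the siGRHL2a libraries between 107 and 112 CPM, so siKLF5b was the highest group. CNTN1 rose in siKLF5b (log2FC 0.37, standard error 0.045, adjusted p = 2.4e-07 from edgeR), and was lower in siTP63b than in siSOX2b (log2FC -0.17, adjusted p = 0.0039), while the comparisons with siGRHL2a gave -0.069 and 0.10 (adjusted p = 0.29 and 0.097). The last passed without siSOX2b replicate 3 (log2FC 0.13, adjusted p = 0.046) and with DESeq2 (log2FC 0.12, adjusted p = 0.021). Per kilobase of exon CNTN1 had 24.6 CPM in siNC1 and MDK 10.8, while per kilobase of span CNTN1 had 0.496 and MDK 7.65, so the order of these ligands depends on the length used.

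Of the 14 other receptors of MDK and PTN tested, 0, 3, 1 and 0 were DEGs in siKLF5b against siNC1, siTP63b against siSOX2b, siTP63b against siGRHL2a and siSOX2b against siGRHL2a. The shares of all genes were 3.26%, 6.7%, 5.39% and 3.32%. ITGA6, the laminin-binding integrin subunit of basal epithelial cells, had 497, 462 and 539 CPM in siTP63b and 1012, 957 and 925 CPM in siSOX2b. The siGRHL2a libraries had 1034, 1007 and 1078 CPM. The siTP63b libraries were the lowest, and ITGA6 was lower there by a log2FC of -0.95 against siSOX2b (adjusted p = 9e-16 from edgeR) and -1.06 against siGRHL2a (adjusted p = 1.2e-16). An antisense gene had 70.5% as many counts as ITGA6.

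ITGA4, an integrin subunit of leukocytes, was higher in siTP63b than in siSOX2b (16.9 ± 1.98 against 9.79 ± 1.17 CPM, log2FC 0.78, adjusted p = 1.3e-06 from edgeR), with CERKL on the other strand at 19.0% of its counts. Its log2FC was under the DEG threshold without siSOX2b replicate 3 (0.69) or siTP63b replicate 1 (0.67). ITGB3, below the mean of 100 counts used to choose named genes and named after its values were seen, had 8 to 26 counts in siTP63b and 37 to 45 in siSOX2b (log2FC -1.17, adjusted p = 0.0069 from edgeR, and -0.81 with adjusted p = 0.061 without siTP63b replicate 2).

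Of the 10 substrates and partners of PTPRZ1 tested, 0, 2, 1 and 1 were DEGs in the 4 comparisons in the same order. The shares of all genes were 3.26%, 6.7%, 5.39% and 3.32%. ADD2, an adducin of the membrane skeleton, was lower in siSOX2b (27.3 ± 2.67 CPM) than in siTP63b (48.4 ± 2.13) and siGRHL2a (46.3 ± 1.82). The log2FC was 0.82 for siTP63b against siSOX2b (adjusted p = 2.6e-11 from edgeR) and -0.76 for siSOX2b against siGRHL2a (adjusted p = 4.2e-10). The second fell under the threshold without siGRHL2a replicate 2 (-0.73), siSOX2b replicate 2 (-0.69) or siSOX2b replicate 3 (-0.73). It also did so with DESeq2 (-0.745), RLE factors (-0.746) or libraries thinned to the smallest total (-0.70). ERBB4, a receptor tyrosine kinase, was higher in siTP63b than in siSOX2b (8.05 ± 0.741 against 3.63 ± 0.808 CPM, log2FC 1.14, adjusted p = 7.2e-08 from edgeR). DLG4, a synaptic scaffold also named after its values were seen, had 8 to 14 counts in siTP63b and 26 to 31 in siGRHL2a (log2FC -1.13, adjusted p = 0.031), and lost its call in 8 of its alternatives, among them without siTP63b replicate 1 or 3 and siGRHL2a replicate 2 or 3 (adjusted p = 0.070, 0.11, 0.085 and 0.070).

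Of the 10 PI3K and AKT genes, 0, 0, 0 and 1 were DEGs, against 3.26%, 6.7%, 5.39% and 3.32% of all genes. In siTP63b against siSOX2b 5 were higher and 1 was lower with an adjusted p below 0.05 (31.8% of all genes in either direction), at absolute log2FC values under 0.75. PIK3R2, a regulatory subunit of PI3K, was lower in siSOX2b than in siGRHL2a (29.97 ± 3.62 against 52.3 ± 0.121 CPM, log2FC -0.81, adjusted p = 4.3e-09 from edgeR), and -0.73 without siSOX2b replicate 2. An overlapping gene on the same strand had 192% as many counts, so PIK3R2 is uncertain.

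Of the 16 genes of chondroitin sulfate synthesis tested, 1, 0, 0 and 0 were DEGs, against 3.26%, 6.7%, 5.39% and 3.32% of all genes. CHST11, a sulfotransferase of chondroitin, fell in siKLF5b (4.49 ± 0.752 against 9.16 ± 0.814 CPM in siNC1, log2FC -1.05, adjusted p = 5.4e-05 from edgeR). In siTP63b 6 of the 16 were lower with an adjusted p below 0.05 against siSOX2b and 6 against siGRHL2a, with 1 and 0 higher. Of all genes 31.8% and 27.1% passed in either direction, so the totals of 7 and 6 are not far from those shares. The median log2FC of the list was -0.26 and -0.19, beside medians of all genes of 0.000595 and -0.00899. The lean towards lower values in this list was not tested. Both comparisons share the siTP63b libraries.

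Of the 18 other receptor-type phosphatases tested, 3, 2, 4 and 3 were DEGs, against 3.26%, 6.7%, 5.39% and 3.32% of all genes. PTPRB, the vascular endothelial phosphatase, rose in siKLF5b (3.598 ± 0.346 against 1.97 ± 0.242 CPM, log2FC 0.89, adjusted p = 0.00039 from edgeR) and was highest in siTP63b (12 ± 1.94 CPM), by 1.68 against siSOX2b and 1.45 against siGRHL2a (adjusted p = 3.3e-11 and 4.9e-10), with an antisense gene at 24.9% of its counts. PTPRN2, a secretory granule protein, fell by 0.80 on the log2 scale in siKLF5b (adjusted p = 3.9e-05 from edgeR) and was lower in siTP63b than in siGRHL2a by -1.11 (adjusted p = 3.6e-08). The first log2FC was -0.72 without siKLF5b replicate 1 and -0.70 with libraries thinned to the smallest total. PTPRQ, known from the inner ear, was lower in siSOX2b than in siGRHL2a (18.4 ± 1.79 against 36.6 ± 1.87 CPM, log2FC -1.003, adjusted p = 1.7e-11 from edgeR) and had 83.8 ± 2.46 CPM in siKLF5b against 54.7 ± 3.28 in siNC1 (log2FC 0.62, adjusted p = 5.6e-08).

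The other called phosphatases had under 100 counts on average and were named after their values were seen. PTPRR, a phosphatase of MAP kinases, had 25 to 38 counts in siTP63b, 2 to 4 in siSOX2b and 8 to 16 in siGRHL2a. It was called in the 3 comparisons of the second set (adjusted p = 3.4e-06, 0.0053 and 0.011 from edgeR). The last call was lost without siSOX2b replicate 1 (0.060) or 2 (0.064). The call for siTP63b against siGRHL2a was lost with libraries thinned to the smallest total (log2FC 1.16, adjusted p = 0.063). PTPRO had 42 to 54 counts in siNC1 and 61 to 88 in siKLF5b (log2FC 0.79, adjusted p = 0.0024), with a log2FC of 0.74 without siKLF5b replicate 1 or siNC1 replicate 1. PTPRT (6 to 10 counts in siGRHL2a, 8 to 28 in siTP63b) and PTPRC (2 to 18 in siGRHL2a, 16 to 40 in siSOX2b) were called with a log2FC of 1.41 (siTP63b against siGRHL2a) and 1.5 (siSOX2b against siGRHL2a) and an adjusted p of 0.017 and 0.026, and the PTPRT libraries overlapped. PTPRT lost its call without siTP63b replicate 1 (0.088) or 2 (0.074) or siGRHL2a replicate 1 (0.072), and PTPRC without siSOX2b replicate 1 (0.070) or 2 (0.096) or siGRHL2a replicate 3 (0.14). PTPRT also lost it in a fit of the libraries of its column set alone (adjusted p = 0.058), and PTPRC with DESeq2 (adjusted p = 0.058). Of the 2 other FAM3 genes tested, FAM3A and FAM3D, 0 passed within a column set by edgeR, and FAM3A for siTP63b against siSOX2b had an unadjusted p of 0.022 (adjusted p = 0.064).

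**Figure D5:**
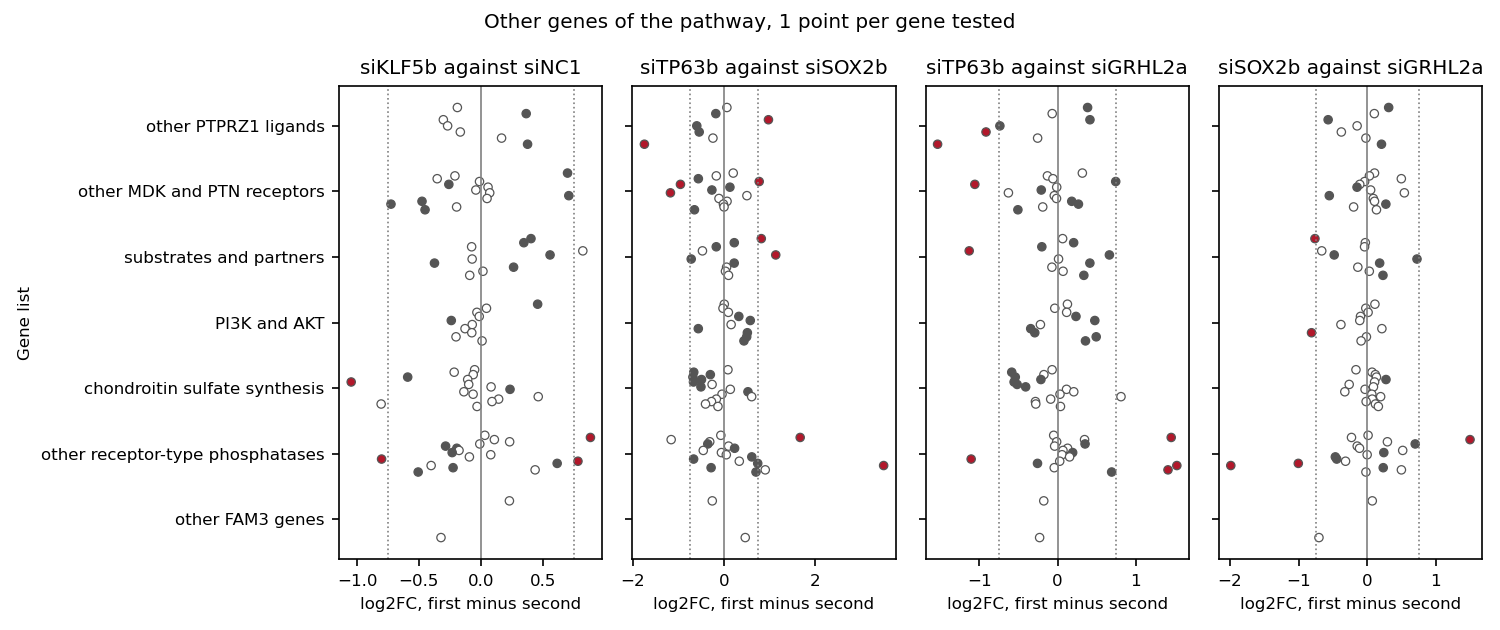
Log2FC (first group minus second, horizontal axes) of the 77 tested genes of 7 lists in the 4 comparisons within a column set, 1 point per gene. Red points were DEGs, grey points had an adjusted p below 0.05, open points neither, and dotted lines mark an absolute log2FC of 0.75. TNC is the leftmost ligand for siTP63b against siSOX2b at -1.74, and ITGA6 lies at -0.95 and -1.06 in the siTP63b comparisons.

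The genes whose pattern was most like that of PTPRZ1 were sought among the 15345 genes averaging 100 or more counts. Likeness was Pearson's r over the 15 libraries on log2 CPM centred within each column set, and these libraries share their groups, so r is given as a description. The highest values were 0.964 for DST, 0.953 for EYA1, 0.950 for the noncoding gene ENSG00000265943 and 0.947 for SYNM-AS1. Without the centring, r was 0.995 for DST but 0.666, 0.33 and -0.736 for the other 3 in the same order, so the last of them ran against PTPRZ1 between the sets.

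DST, which encodes the cytoskeletal linker dystonin, had means of 1572 CPM in siNC1 and 1769 CPM in siKLF5b, and its log2FC was 0.17 for siKLF5b against siNC1, -0.22 for siTP63b against siGRHL2a and -0.27 for siSOX2b against siGRHL2a. EYA1, a transcriptional coactivator, was at 0.53, -0.58 and -0.84 in the same 3 comparisons. Since these genes were chosen for following PTPRZ1 in the same libraries, their values are a description and no test is given. Overlapping genes had 75.8% as many counts as EYA1, 477% as many as ENSG00000265943 (RBBP8) and 214% as many as SYNM-AS1 (IGF1R), so these 3 are uncertain. Among the other 7 members r with PTPRZ1 ran from -0.605 for NCL to 0.549 for SDC1 and 0.661 for FAM3C.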

How the data were processed

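RNA-seq counts of 15 HCC95 libraries in 5 groups were used. Per the study's methods and the submitters' processing notes, the authors selected polyadenylated RNA, mapped the read pairs to hg38 (HISAT2 2.2.1) and counted unique alignments per gene (featureCounts 2.0.1, Gencode release 40). The deposited values are raw counts without normalization, and whether strand or fragments were counted is not given in the sources used here. The deposited length column (another number than a count, in bases) equals the gene span for 61544 of 61544 genes, and the 37 mitochondrial genes had 0 counts. The molecule label reads genomic DNA, whereas the protocol describes poly(A) RNA. All 15 count columns were matched to libraries by name. Exon lengths came from Gencode release 44 and promoters from RefSeq. The tests used edgeR 4.0.16 with limma 3.58.1 under R 4.3.3 (TMM factors, filterByExpr, 1 quasi-likelihood fit of 15 libraries with a mean for each group, Benjamini-Hochberg over 25108 genes), and DEGs had an absolute log2FC above 0.75 at an adjusted p below 0.05. CPM values are scaled by TMM. The steps were tested on simulated counts with 200 changed genes. Alternatives were RLE and upper-quartile factors, other filters, a replicate block, subsets of libraries, DESeq2 1.42.0, thinning, halved counts, other fold thresholds and each library left out. Their use for genes beyond the 8 members was added after seeing the data. Named genes were the 8 members, the 4 targets, up to 3 DEGs per list and comparison within a column set with a mean of at least 100 counts, the tested protein-coding genes within 1 Mb of PTPRZ1 and the 5 genes most like it. A gene chosen by this rule and a marker gene are not reported here. The members and lists were chosen with earlier results of these data known. Totals of 15655495 to 34229063 counts per library limit the precision. As it is not given whether fragments were counted, a count may not carry the same precision in both column sets. Same-numbered replicates did not deviate together (r from -0.045 to 0.049), so the numbers were not taken to pair libraries.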

Additional observations from a re-analysis of the deposited data

How the results depend on the processing

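All PTPRZ1 log2FC values kept their direction and their side of the adjusted p of 0.05 in the alternatives run, with or without the replicate block, which gave 0.317 for siKLF5b against siNC1 and left the number of DEGs among the 8 genes unchanged in the 7 comparisons. With no threshold on log2FC that number was 4 for siKLF5b against siNC1, 5 for siTP63b against siSOX2b, 3 for siTP63b against siGRHL2a, 5 for siSOX2b against siGRHL2a, and 7 and 6 for siTP63b and siSOX2b against siNC1. It was 1 for siTP63b against siSOX2b with glmTreat or an absolute log2FC above 1, 1 for siGRHL2a against siNC1 above 1, and 2 for siSOX2b against siGRHL2a with upper-quartile factors. Leaving out 1 library gave 1 to 2 in each of the last-named within-set pairs, siTP63b against siSOX2b and siSOX2b against siGRHL2a. Values that changed sign had no call. For MDK in siSOX2b against siGRHL2a, upper-quartile factors gave -0.0058 and leaving out 1 library gave -0.094 to 0.082. Leaving out 1 library gave ranges of -1.02 to 0.060 (PTN, siKLF5b against siNC1), -0.46 to 0.62 (PTN, siSOX2b against siGRHL2a), -0.54 to 0.018 (PTN, siTP63b against siNC1), -0.019 to 0.14 (FAM3C, siTP63b against siGRHL2a), -0.051 to 0.038 (NCL, siTP63b against siGRHL2a), -0.030 to 0.042 (ING3, siKLF5b against siNC1), -0.17 to 0.011 (ING3, siSOX2b against siGRHL2a), -0.095 to 0.33 (CPED1, siTP63b against siSOX2b) and -0.085 to 0.26 (CADPS2, siSOX2b against siGRHL2a). Of 2124 values of single genes under alternatives, 2033 kept direction and side, 50 lost and 25 gained the call, and 16, those of the genes just listed, changed sign. The causes were not tested. Low counts limit PTN, and the column set limits the comparisons of siTP63b, siSOX2b and siGRHL2a with siNC1.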
